A study of Mus musculus with 250 samples.

Results

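The basal-gated epidermal cells are 128 of 250 single cells (51.2%) sorted from mouse tail skin, chosen by their own RNA as most like the basal layer. In every cell, reads were scaled to 10000 per cell, put on the scale log2(value + 1) and centred gene by gene on the mean of all 250 cells. A cell was a member when its average over 6 basal markers (Krt5, Krt14, Krt15, Col17a1, Itga6 and Itgb4) exceeded its averages over 5 suprabasal markers (Krt1, Krt10, Krtdap, Dsg1a and Mt4) and over 6 upper follicle markers (Krt79, Cst6, Defb6, Plet1, Krt17 and Aqp3). Of the other 122 cells, 71 were suprabasal-gated and 51 upper follicle-gated. These 17 genes set the membership, so their levels are given as a description.

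All cells came from Lrig1CreER/Rosa-TdTomato mice, in which cells that had used the Lrig1 promoter, and their progeny, carry a red reporter, so other basal cells of the skin were not sampled. All were sorted for Lrig1-lineage label and for Sca1, the surface protein encoded by Ly6a, a sort meant to favour the upper hair follicle. All have the same time label of 8 weeks with an abbreviation, pw1, that the labels do not spell out, and no age or separate treatment is given. A control region that the labels call non-memory gave 84 cells, a region distal to the wound with memory gave 81, and 85 were taken from the wound bed. Each was processed in 2 batches, with a plate of its own for each region and batch. No animal is named, so each region counts as 1 sample, no test between regions was possible, and plate and region cannot be told apart within a batch.

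The basal layer is the deepest layer of the epidermis, where stem and progenitor cells rest on the basement membrane. Its cells make the keratin pair of Krt5 and Krt14, hold to the membrane through hemidesmosomes that contain collagen XVII and the alpha-6 beta-4 integrin, and depend on the transcription factor p63. Cells that leave the layer switch to other keratins, such as those of Krt1 and Krt10. After a wound, progeny of follicle stem cells can move into the epidermis and take part in its repair.

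Members were found on all 6 plates, at 59.5% of control cells (50 of 84, exact 95% interval 48.3 to 70.1%), 51.9% of distal memory cells (42 of 81, 40.5 to 63.1%) and 42.4% of wound bed cells (36 of 85, 31.7 to 53.6%). The intervals, which cover counting error only, overlap between all 3 regions. The order was the same in each batch, with 57.1%, 50% and 36.7% in batch 1 and 60.7%, 53.1% and 45.5% in batch 2. The non-members differed in kind, since the control region held 9 suprabasal-gated and 25 upper follicle-gated cells and the wound bed 37 and 12. The part of the sort for Sca1 and the Lrig1 label, and of any cell loss, in these shares was not tested.

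**Figure D1:**
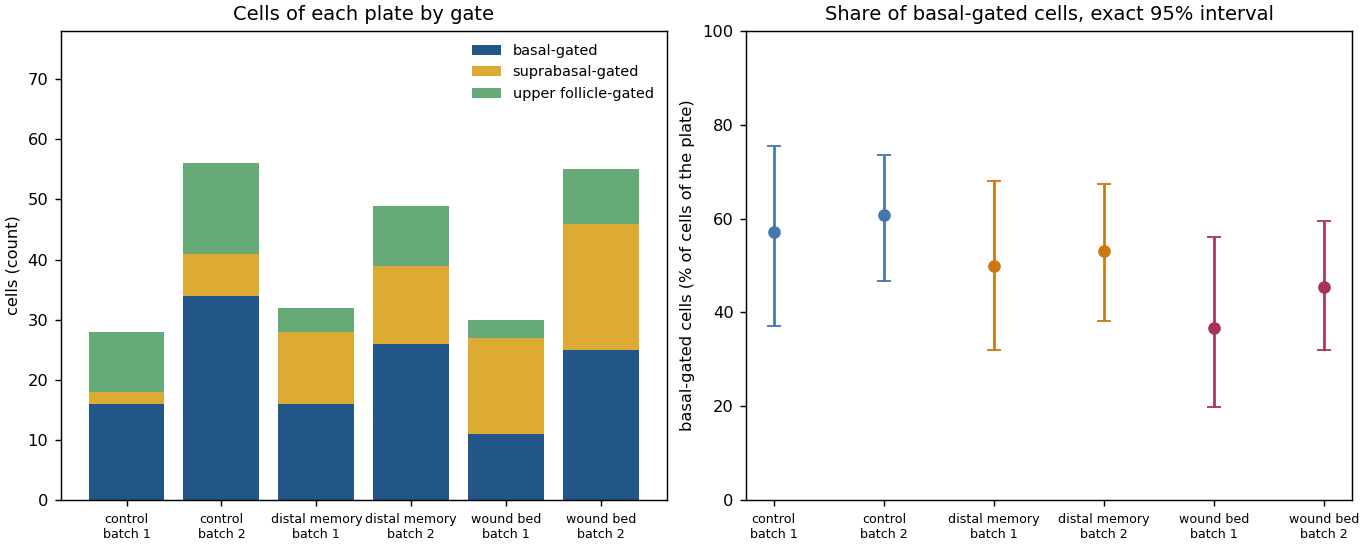
Cells of each plate by gate (left, stacked counts) and the share of basal-gated cells with its exact 95% interval (right, percent of the plate's cells). The share runs from 36.7% on the wound bed plate of batch 1 to 60.7% on the control plate of batch 2, and the intervals of all plates overlap.

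Median depth was 47454.5 reads per member (range 3857 to 1977308) and 1892.5 detected genes, with 31.6% of reads from mitochondrial transcripts. Depth was uneven, since 1 distal memory cell of batch 1 held 57.4% of all reads of its plate's members. For this reason every cell was given equal weight in the means, though not in the folds by summed reads. A group of 12 repeat-like predicted genes took over 5% of the non-mitochondrial reads in 16 members, of which 13 were control cells (10 of 16 in batch 1, 3 of 34 in batch 2) and 3 distal memory cells. Results were also computed without these cells, and the named genes that then lost their call are given with each comparison. No doublet caller was run, and the part of doublets in these results was not tested.

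**Figure D2:**
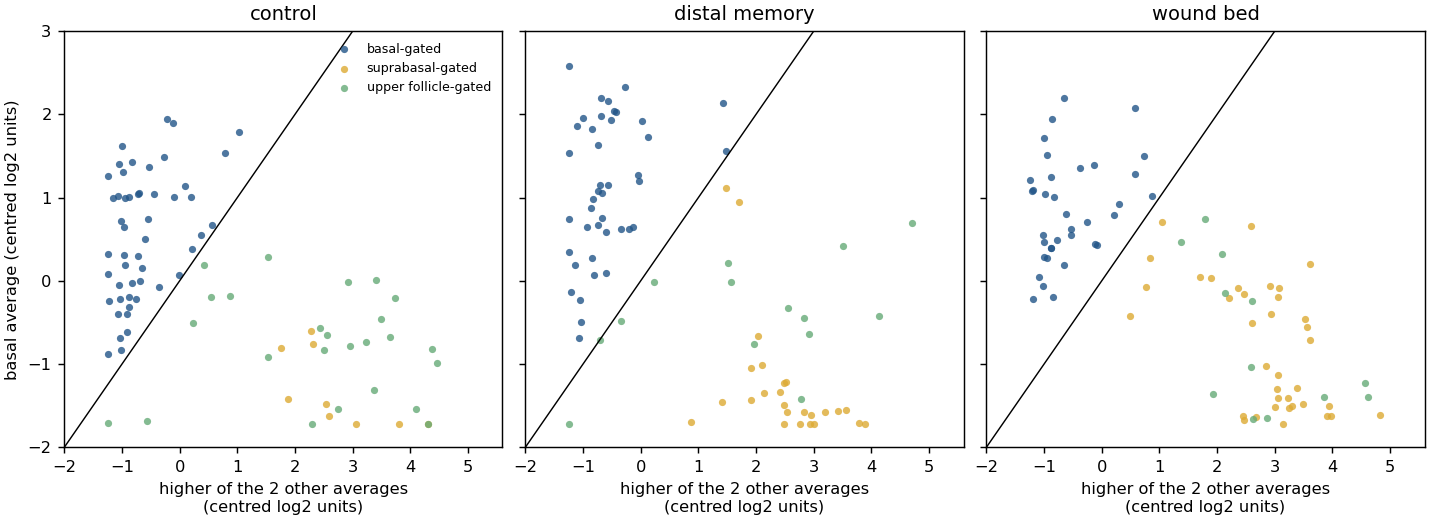
Basal average (vertical) against the higher of the suprabasal and upper follicle averages (horizontal) for each cell, both in centred log2 units, 1 panel per region, with the line of equality. Members lie above the line, most of them far from it, and 7 lie within 0.25 of it.

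Most members carried the markers that the name basal refers to. Krt5 and Krt14 had reads together in 127 of 128, and 116 had reads of at least 4 of the 6 markers. Krt5 was read in 99.2% of members and 38.5% of the other cells, Krt15 in 92.2% and 34.4%, and Col17a1, the hemidesmosomal collagen, in 92.2% and 54.9%. The integrin genes were sparse, with Itga6 in 40.6% and Itgb4 in 35.9% of members. The gate is a range on a score and not a sharp class. The basal average led the next by a median of 1.31 log2 units (0.0786 to 3.83). The 3 cells nearest the line inside it led by 0.0786, 0.0857 and 0.112, and the 3 nearest outside it trailed by -0.00739, -0.136 and -0.239. In 22 members the basal average was at or below 0, which means that they entered because the other averages were lower still. It was above 0 in 7 of 16 and 28 of 34 members on the control plates. On the distal plates it was above 0 in 14 of 16 and 24 of 26, and on the wound bed plates in 9 of 11 and 24 of 25. The median basal average of members was 0.603 in control, 1.11 in distal memory and 0.798 in the wound bed. Control members were thus the least basal by this score. When cells were thinned to 10000 reads, all 118 members with enough reads stayed members.

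Other cell types left few traces in the members. No member had reads of 2 or more genes from the marker lists of T cells, Langerhans cells, melanocytes, Merkel cells, fibroblasts or endothelium, and between 2 and 7 members had a read of any gene of each list. Ptprc, Cd3e, Cd207, Cd74, Pmel, Tyr, Col1a2, Pdgfra and Cdh5 had no read in any member. A count of 0 in 128 members allows a share of up to 2.34% for each list.

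Among the 6 basal gate genes, members varied most in Krt15, a keratin of follicle and slowly dividing basal cells. Krt14 had a median of 44.3 reads per 10000 over the members (1.07 to 301) and Krt5 of 7.19 (0 to 55.3), while Krt15 ranged from 0 to 208 around a median of 10.6. On the log2 scale the SD over cells was 2.02 for Krt15, 1.39 for Krt14, 1.36 for Col17a1 and 1.11 for Krt5. Across the 128 cells, which share plates and depth, the levels of Krt5 and Krt14 had a Pearson correlation of 0.58 and those of Krt5 and Col17a1 of 0.59. For Krt14 and Krt15 the value was 0.00.

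Members and the other cells of the same plate were separated by the gate on keratin and adhesion genes, so what follows describes the cells chosen and has no test. Of 2787 genes considered, 199 were higher in members on all 6 plates and 165 were lower on all 6. Basal-layer genes that the gate did not use were among the higher ones, 3 of 11 considered. None of the 11 was lower on all plates, which beside 165 of 2787 genes is no result. Dst, the hemidesmosomal linker BPAG1, was read in 93% of members and 59% of other cells, with a median log2 ratio of 1.70 over the plates. Itgb1, the beta-1 integrin, stood at 2.48 (43% and 21.3% of cells) and Trp63, which encodes p63, at 1.12 (79.7% and 63.1%). Itga2 and Lama5, a collagen receptor subunit and a laminin chain, were also higher on all 6 plates but were read in only 23.4% and 19.5% of members. The summed level of the 23 other basal-layer genes was higher in members on all 6 plates.

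The genes that set members most apart by rank included membrane, growth factor and iron-storage genes. Cav1 and Cavin3, which build caveolae, were read in 76.6% and 60.9% of members against 29.5% and 12.3% of other cells. Ptn, the growth factor pleiotrophin, was read in 60.9% and 15.6%, and Ftl1, the ferritin light chain, in 83.6% and 16.4%. Ifitm3 (median log2 ratio 2.90), Slc6a6, the taurine transporter (2.68), Gas1, a cell-surface modulator of hedgehog signalling (2.25), S100a6 (2.27), Prxl2a (3.05), Serpinb6a (2.63), Pdlim1 (2.22) and Moxd1 (2.19) completed the 12. Cav1 was read in 28.2% of suprabasal-gated and 31.4% of upper follicle-gated cells, while Ftl1 was read in 5.63% and 31.4%.

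Genes lower in members included 6 of 12 considered from the list of other differentiation genes. None of the 12 was higher on all 6 plates, which beside 199 of 2787 genes is no result. By rank, Ly6g6c was read in 3.91% of members and 61.5% of other cells, the retinol dehydrogenases Sdr16c6 and Sdr16c5 in 3.91% and 20.3% against 61.5% and 70.5%, and Zfp750, a differentiation factor downstream of p63, in 6.25% against 52.5%. Calm4 (median log2 ratio -3.57), Krt2 (-5.50), Dapl1 (-3.05), Rab25 (-2.99), Acsl1 (-2.90), Bbox1 (-3.62), Serpinb3b (-4.49) and Pdzk1ip1 (-3.04) were the rest of the 12. Cdkn1a, the cell-cycle inhibitor p21, was read in 10.2% of members and 66.4% of the other cells.

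Transcripts of dividing cells were read in members more often than in other cells. Reads of at least 2 of 16 G2 and M phase genes were found in 25.8% of members (33 of 128, interval 18.5 to 34.3%) and 4.10% of other cells (5 of 122, 1.34 to 9.31%). Median depth was 47454.5 and 54574 reads. Of the regions' members, 20% in control (10 of 50, 10 to 33.7%), 31% in distal memory (13 of 42, 17.6 to 47.1%) and 27.8% in the wound bed (10 of 36, 14.2 to 45.2%) met this, and the intervals overlap. At 10000 reads per cell the shares were 18.4%, 26.3% and 19.4%. Mki67, the proliferation antigen, was read in 24%, 31% and 38.9% of the regions' members. Its mean level was 1.28 and 1.96 reads per 10000 on the control plates, 3.33 and 1.85 on the distal plates and 1.14 and 2.65 on the wound bed plates, an overlap of all 3 regions. Of the S phase genes, Mcm6, a subunit of the replicative helicase, Tyms, which makes thymidylate, and Slbp, which binds histone mRNA, were higher in members on all 6 plates.

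Between regions, members were compared plate with plate within each batch. A gene entered a comparison when, in each batch, at least 25% of the members from 1 of the 2 plates held a read. The value is log2 of the ratio of mean reads per 10000, each raised by 0.1, and pairs of values below are batch 1 then batch 2. The size rule asked for a difference of at least 2-fold in the same direction in both batches. Where 1 plate of a pair held 3 reads or fewer, the fold is given by summed reads. Such folds follow the deepest cells and can differ widely from the ratio of equal-weight means. Their intervals take every read as an independent count and leave out differences between cells. In the wound bed against control, 148 of 2345 genes (6.31%) were higher and 139 (5.93%) lower, with 168 that reached this size in opposite directions. In the distal memory region against control, 158 of 2810 genes (5.62%) were higher and 105 (3.74%) lower, with 215 in opposite directions. In the distal memory region against the wound bed, 192 of 2780 (6.91%) were higher and 124 (4.46%) lower, with 269 in opposite directions. Over the genes of a comparison, which do not count as replicates, batch 1 and batch 2 ratios had a Pearson correlation of 0.21, 0.05 and 0.06 in that order. In each comparison more genes went in opposite directions than in either shared direction alone. Both shared directions together held 287, 263 and 316 genes in that order, more than the 168, 215 and 269 in opposite directions. The genes named by rank below are those that also differed in the share of cells with a read, in the same direction.

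**Figure D3:**
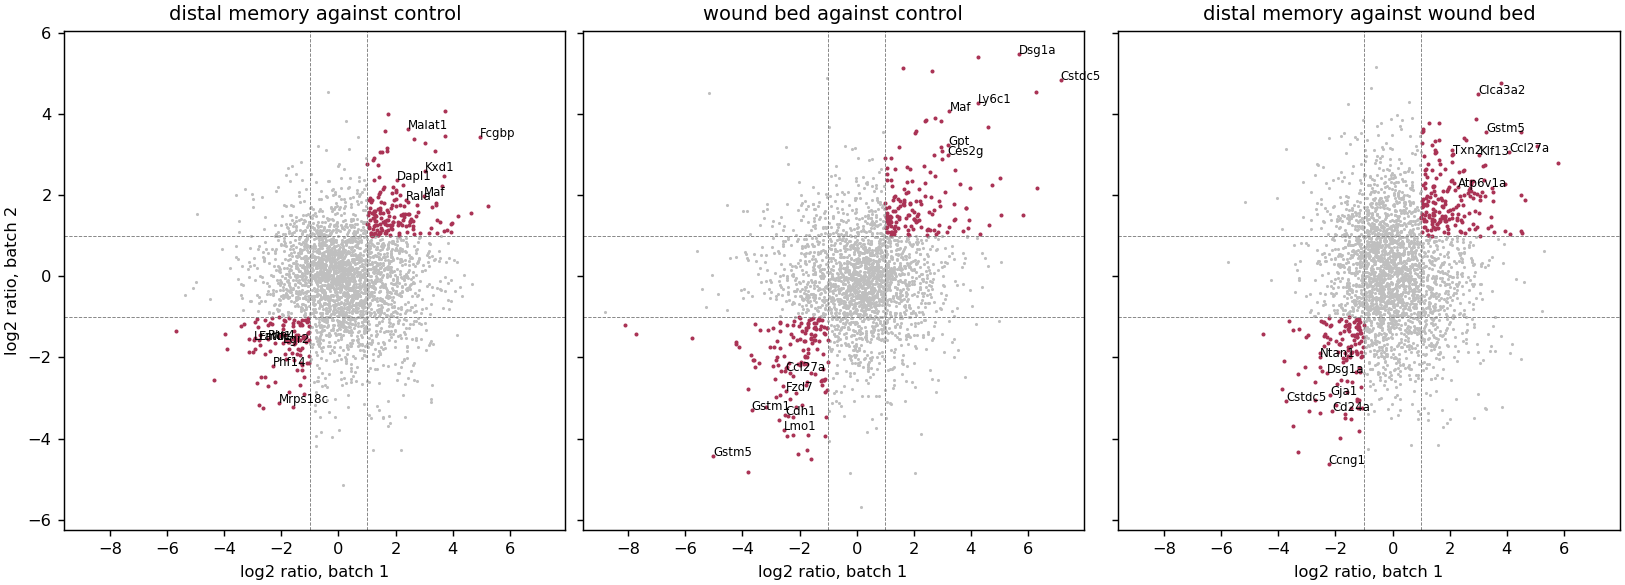
Log2 ratio of mean level in basal-gated cells, batch 1 (horizontal) against batch 2 (vertical), 1 point per gene considered, for the 3 comparisons. Coloured points met the size rule (dashed lines at 1 and -1), and leading genes are named. The clouds have little slope, with correlations of 0.05 to 0.21, and in the wound bed panel Cstdc5, Dsg1a and Gstm5 lie among the farthest out with one sign in both batches.

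Basal-gated cells of the wound bed carried far more RNA of the stefin A genes than those of control. Stefins are small inhibitors of cysteine proteases in stratified epithelia. Cstdc5 had mean levels of 37.7 and 29.7 reads per 10000 on the wound bed plates, 2.76 and 3.42 on the distal plates and 0.166 and 0.938 on the control plates. The 3 regions did not overlap, with the wound bed highest and control lowest. Cstdc5 was read in 91.7% of wound bed members (33 of 36, 77.5 to 98.2%), 33.3% of distal members (14 of 42, 19.6 to 49.5%) and 16% of control members (8 of 50, 7.17 to 29.1%). Stfa1 had no read in 50 control members, which allows a share of up to 6%, and was read in 44.4% of wound bed members (27.9 to 61.9%) and in 9 of 42 distal members. Taking 3 reads per plate as the floor, the summed Stfa1 reads of wound bed members were at least 66-fold higher than those of control members in batch 1 and at least 43.6-fold higher in batch 2. Stfa3 (2.64 and 5.07) and Csta1 (3.45 and 2.61) were higher too, so that 4 of 5 stefin genes considered met the rule (6.31% of all genes). Cstb, the fifth, had means of 0.761 and 1.2 in the wound bed against 2.73 and 1.91 in control.

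The non-basal cells of the wound bed held more of these genes than those of control as well. There, Cstdc5 was read in 81.6% of wound bed and 23.5% of control cells, and Stfa1 in 63.3% and 14.7%. Against the other cells of their plate, members had less of Stfa1 and Cstdc5 on all 6 plates. The stefin A genes are close paralogs on chromosome 16 (Stfa1 at 36276951 to 36285373, Stfa3 at 36450537 to 36455392, Csta1 at 36119946 to 36131241, GRCm38), and reads shared among them could be split by the counting.

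Transcripts of the suprabasal gate genes were read in more wound bed members, even though the gate had ranked their basal average highest. The suprabasal gate genes set the membership too, so their levels, folds and intervals describe the cells chosen and are no separate result. Reads of at least 2 of the 5 suprabasal gate genes were found in 83.3% of wound bed (67.2 to 93.6%), 61.9% of distal (45.6 to 76.4%) and 36% of control members (22.9 to 50.8%). At equal depth the shares were 80.6%, 34.2% and 22.4%. Dsg1a, a desmosomal cadherin of the suprabasal layers, had mean levels of 5.42 and 4.36 in the wound bed, 1.02 and 0.752 in distal memory and 0.00734 and 0 in control, with no overlap. It was read in 18 of 36, 12 of 42 and 2 of 50 members, and 1 wound bed cell gave 60.2% of the batch 1 mean. By summed reads Dsg1a was 317-fold higher in the wound bed than in control in batch 1 (counting interval 86.1 to 2641) and at least 612-fold higher in batch 2. Krt10 (1.31 and 1.94) met the rule as well, though not when plate sums were scaled by TMM or DESeq2 size factors, and Krt2, a late keratin, was read in 30.6% of wound bed and 6% of control members. Krt2 was the 1 gene of 6 considered from the list of other differentiation genes that met the rule, and 2 of the 6 were below 0 in both batches. Beside 6.31% of all genes called higher, 1 gene of 6 is no result about the list. The summed level of that list was 8.53 and 13.9 in the wound bed and 9.30 and 19.1 in control, lower in the wound bed in both batches. Suprabasal was the second-ranked average in 14 of 36 wound bed members, 7 of 42 distal members and 1 of 50 control members.

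**Figure D4:**
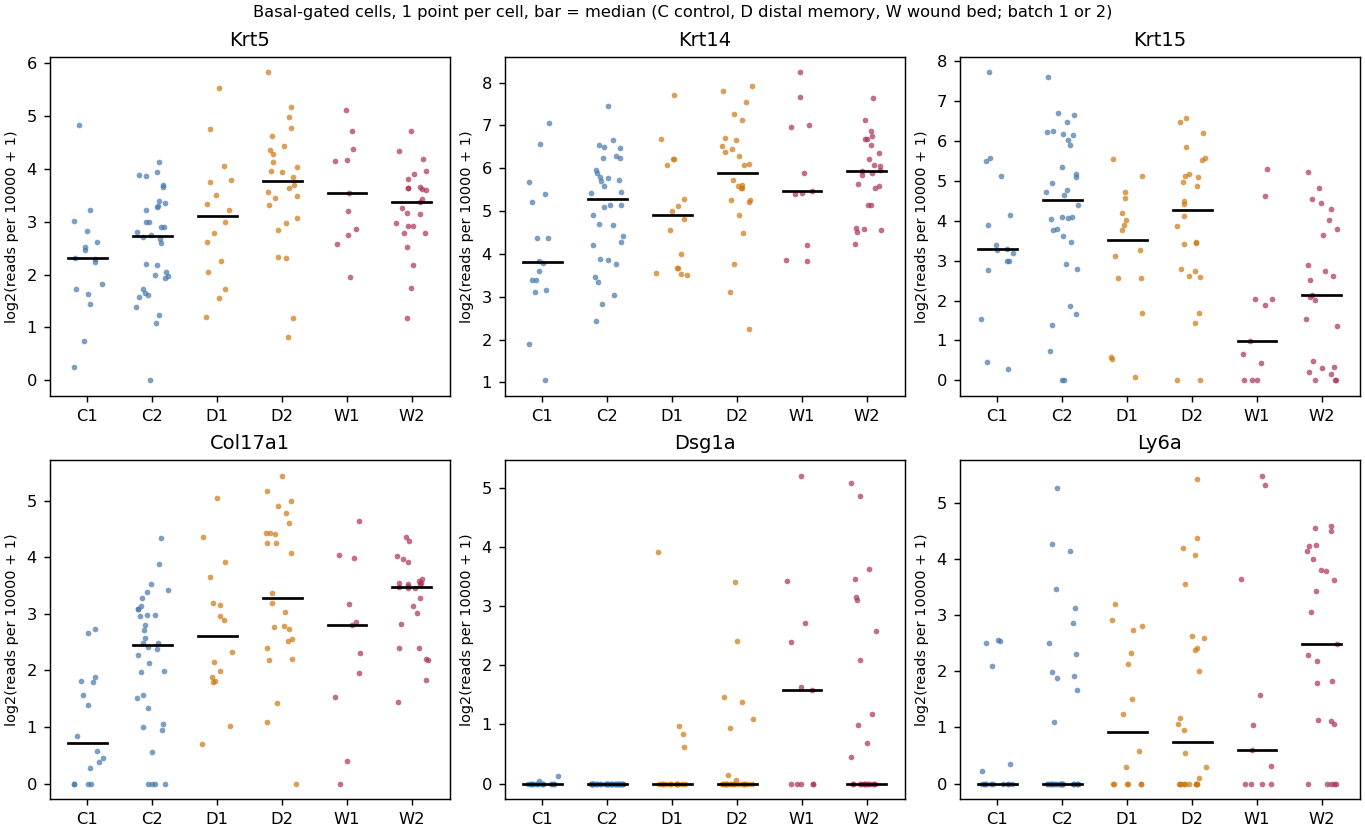
Levels of 4 gate genes, of Dsg1a and of Ly6a in each basal-gated cell by plate, as log2(reads per 10000 + 1), with the median as a bar. Krt5 and Krt14 overlap between regions, Krt15 is lowest on both wound bed plates, and Dsg1a is at or near 0 in the control cells.

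Fewer wound bed members had reads of several follicle genes, although the summed levels did not follow the same order in both batches. Gate genes, Krt15 among them, set the membership, so their values here describe the cells chosen. At least 2 upper follicle gate genes were read in 22.2% of wound bed members (10.1 to 39.2%) against 66.7% of distal (50.5 to 80.4%) and 70% of control members (55.4 to 82.1%). For 11 other upper follicle genes the shares were 13.9%, 52.4% and 64%, and at equal depth 28.9% and 42.9% of distal and control members had 2 of the gate genes. The summed level of the 6 gate genes was 3.18 and 13.1 in control, 7.23 and 7.56 in distal memory and 7.21 and 5.84 in the wound bed, so control was lowest in batch 1 and highest in batch 2. None of 4 gate genes considered met the size rule in the wound bed against control (medians 0.26 and -1.50). With 6.31% of all genes called higher and 5.93% lower, that count is no result. Aqp3, a water and glycerol channel, was read in 80.6% of wound bed and 68% of control members. Lrig1, the lineage gene, was read in 1 of 36 wound bed, 11 of 42 distal and 10 of 50 control members, and Gata6, a factor of the follicle duct, in 1, 4 and 11. Gata6 was read in too few members to enter any comparison, and Lrig1 entered the one of distal memory with control only (-1.49 and 0.72). Krt15 had mean levels of 26.2 and 36.9 in control, 13.4 and 26.5 in distal memory and 6.56 and 8.04 in the wound bed, so that the wound bed plates lay below the rest. It was lower in the wound bed than in control (-1.98 and -2.18) and read in 83.3% and 96% of members. Krt14 (29.3 and 45.5 in control, 46.6 and 78.5 in distal memory, 89.3 and 67.9 in the wound bed) and Krt5 (5.27 and 6.23, 10.6 and 15.2, 13.7 and 9.87) had wound bed means above both control means. Itgb4 met the rule (1.34 and 1.12), but 1 cell gave all of its wound bed mean in batch 1 and its mean ratio changed sign with scaled plate sums. Postn, an extracellular matrix protein placed on the bulge list, was read in 38.9% of wound bed, 83.3% of distal and 70% of control members.

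The genes lower in wound bed members included 3 mu-class glutathione transferases, which couple glutathione to reactive compounds, and the aldehyde and alcohol dehydrogenases Aldh3a1 and Adh7. The 3 transferase genes lie close together on chromosome 3. The 300 bases around their RefSeq start sites (250 before and 50 after, GRCm38.p6, read in the direction of the gene) are shown because the 3 genes were lower together. Capitals mark 3 motifs searched on both strands, the TATA box TATAAA, the antioxidant response element core TGACNNNGC and the xenobiotic response element core GCGTG, which can overlap. The windows are chr3:107895604-107895903 on the plus strand for Gstm5, chr3:108017924-108018223 on the minus strand for Gstm1 (the first of 2 start sites in the table) and chr3:107986371-107986670 on the minus strand for Gstm2.
Gstm5: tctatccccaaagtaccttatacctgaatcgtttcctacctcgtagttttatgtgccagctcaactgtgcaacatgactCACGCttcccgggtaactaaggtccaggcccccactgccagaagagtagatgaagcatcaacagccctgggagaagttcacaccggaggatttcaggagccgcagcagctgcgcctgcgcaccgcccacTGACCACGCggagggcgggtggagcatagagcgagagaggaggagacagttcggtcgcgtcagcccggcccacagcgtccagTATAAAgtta
Gstm1: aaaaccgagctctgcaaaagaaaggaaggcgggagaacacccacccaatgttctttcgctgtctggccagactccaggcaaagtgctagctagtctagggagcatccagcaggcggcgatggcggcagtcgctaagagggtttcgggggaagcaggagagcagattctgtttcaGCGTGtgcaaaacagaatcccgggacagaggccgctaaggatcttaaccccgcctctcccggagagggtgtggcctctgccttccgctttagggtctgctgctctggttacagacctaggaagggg
Gstm2: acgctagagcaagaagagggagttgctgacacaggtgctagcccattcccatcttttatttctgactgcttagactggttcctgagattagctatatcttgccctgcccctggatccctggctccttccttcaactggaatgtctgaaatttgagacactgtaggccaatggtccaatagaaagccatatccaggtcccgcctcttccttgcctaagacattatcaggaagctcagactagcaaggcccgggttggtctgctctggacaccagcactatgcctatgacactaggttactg

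Gstm5 held an antioxidant element at -42 that overlapped a xenobiotic element at -38, a second xenobiotic element at -171 and TATAAA at 41, counted from the start site as 1. Gstm1 held a xenobiotic element at -76, and a window at its second start site, chr3:108017769-108018068, held that element at -231 and TATAAA at -30. Gstm2 held none of the 3 motifs in its window. Of 32851 windows of this length in the table, 12.4% held TGACNNNGC, 32.4% held GCGTG and 13.6% held TATAAA. No motif was found in all 3 genes.

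Gstm5 had mean levels of 9.12 and 12.2 reads per 10000 on the control plates, 2.64 and 6.55 on the distal plates and 0.184 and 0.467 on the wound bed plates. The regions did not overlap, and the wound bed was lowest. Gstm5 was read in 86% of control (43 of 50, 73.3 to 94.2%), 61.9% of distal (26 of 42, 45.6 to 76.4%) and 11.1% of wound bed members (4 of 36, 3.11 to 26.1%). Its log2 ratios were -5.02 and -4.43 for the wound bed against control. Gstm1 stood at -3.29 in batch 2 and, with 3 wound bed reads in batch 1, was 44.8-fold lower by summed reads there (15.3 to 218), and Gstm2 at -2.39 and -2.14. Aldh3a1 was at -2.34 and -3.02 and Adh7 at -2.46 and -2.24. Gsto1 and Gstp1, of other classes of the family, did not meet the rule, with Gsto1 read in 94.4% of wound bed and 78% of control members. In the non-basal cells Gstm5 and Gstm1 were lower in both batches too, while Adh7 was at 0.97 and -0.58 there. The Gstm genes are close paralogs too, so the split of reads among them is uncertain.

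The other genes lower in wound bed members were of varied function. Fzd7, a Wnt receptor and the 1 gene of 7 considered on the Wnt list that met the rule, was read in 11.1% of them (4 of 36) and 60% of control members (30 of 50), at -2.46 and -2.82. Beside 5.93% of all genes called lower, 1 gene of 7 is no result about the list. Ccl27a, a skin chemokine that attracts T cells, was at -2.51 and -2.34, and H2-K1, an MHC class I heavy chain, at -1.14 and -2.55. Lmo1, a LIM-domain cofactor (-2.54 and -3.79), Klf13 (15.4-fold by summed reads in batch 1 with 3 wound bed reads, counting interval 5.19 to 75.2, and -2.23 in batch 2), Ndufs7 of respiratory complex I (-2.64 and -2.32) and Cdh1, E-cadherin (-2.49 and -3.42), were lower. Bmp7, a BMP ligand, was read in 3 of 36 wound bed and 15 of 50 control members. Cdh1, Bmp7 and Itgb4 did not meet the rule without the repeat-rich cells, and Bmp7 also failed it in 3 other settings, including thinned cells. Klf13 failed it with thinned cells, Ccl27a with scaled plate sums, and Fzd7 and H2-K1 among members with a basal average above 0. With a pseudocount of 1, H2-K1 and Klf13 failed it as well. Cdh1 and Klf13 had opposite signs between batches in the non-basal cells.

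Higher genes included receptors for growth factors. Fgfr2 was read in 63.9% of wound bed, 69% of distal and 24% of control members and stood at 1.67 in batch 2 in the wound bed against control. With 3 control reads in batch 1, its summed reads differed 154-fold there (51.3 to 759). Fgfr3 was at 2.11 in batch 1 and, with 2 control reads, 50.3-fold higher in batch 2 (13.4 to 423). Lama3, the alpha chain of the main epidermal laminin, was at 1.38 and 1.34, so that 3 of 14 other basal-layer genes considered were higher (6.31% of all genes). None met the rule as lower, though 2 of the 14 were below 0 in both batches. With 5.93% of all genes called lower, a count of 0 among 14 is no result. Lama3 and Ly6a fell short of the rule with scaled plate sums. Ly6a, the gene of the sort marker, stood at 2.88 and 1.26 and was read in 75% of wound bed, 61.9% of distal and 38% of control members. Ly6c1 of the same family was read in 21 of 36 wound bed and 2 of 50 control members, with 3 and 1 control reads per plate (63.1-fold, 20.2 to 318, and 494-fold, 88.2 to 19584, by summed reads). Maf, a transcription factor, was at 3.25 and 4.08 (75% and 32% of members). Gpt, Ces2g, Acer3 and Vbp1 were named by rank too. Acer3, a ceramidase, was at 2.94 and 3.18, but 1 cell gave 79.7% of its batch 2 mean. Ces2g, a carboxylesterase, was read in 58.3% and 4% of members and Gpt, alanine aminotransferase, in 41.7% and 2%, whereas Vbp1, a prefoldin subunit (2.98 and 2.90), was lower rather than higher in wound bed non-basal cells (-2.13 and -0.34). Ces2g, Gpt, Fgfr3 and Krt2 fell short of the rule with thinned cells. Of the 33 named genes that met the rule, 16 had the same sign in both batches of the non-basal cells, 1 the opposite sign and 16 mixed signs. The non-basal cells share plates with the members, and the share over all genes is not given. These counts are therefore a description only.

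**Figure D5:**
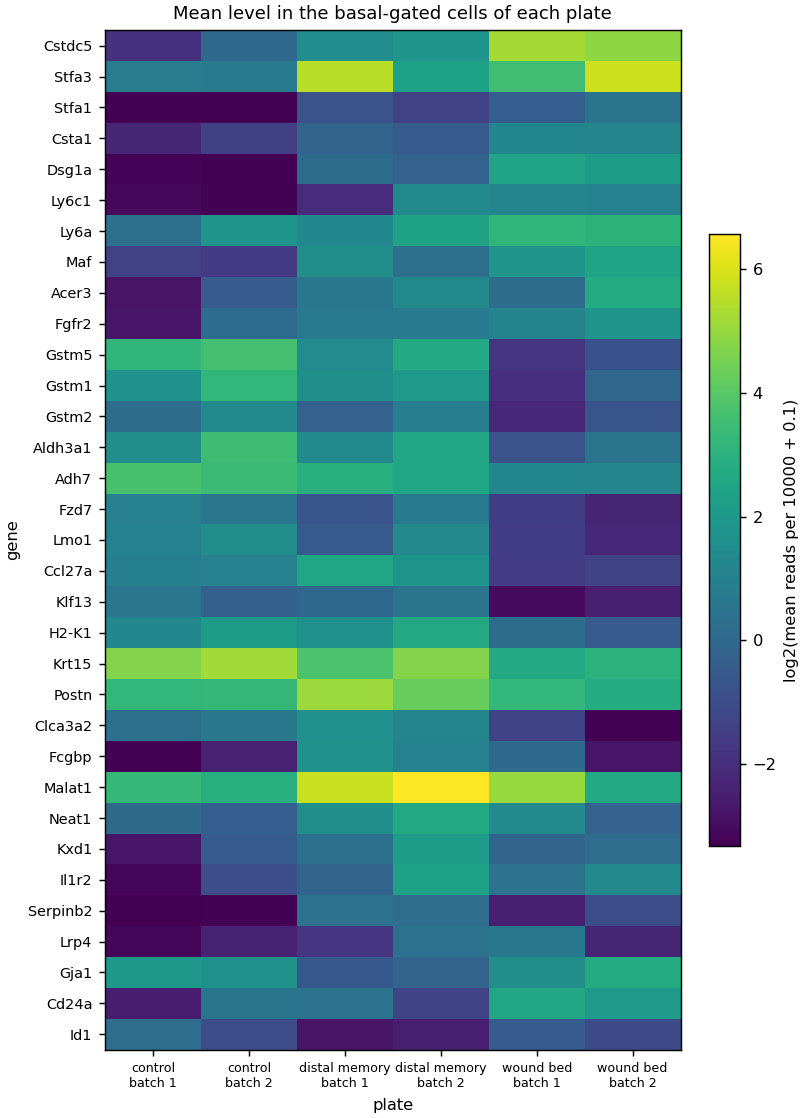
Mean level in the basal-gated cells of each of the 6 plates, as log2(mean reads per 10000 + 0.1), for 33 of the named genes (rows). Cstdc5 and Dsg1a are brightest on the wound bed plates (Cstdc5 means 37.7 and 29.7), the Gstm genes, Fzd7 and Klf13 are darkest there, and Malat1 and Fcgbp are brightest on the distal plates.

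Malat1 and Fcgbp were among the genes higher by rank in distal memory members than in control members. The comparison uses the same control cells as the one above, so part of any likeness between them follows from those cells. Malat1, a nuclear long non-coding RNA, had mean levels of 52.5 and 94.5 in distal memory and 9.60 and 7.53 in control, and the plates did not overlap. It was read in 81% (65.9 to 91.4%) and 52% (37.4 to 66.3%) of members, at log2 ratios of 2.44 and 3.63. Neat1, another nuclear non-coding RNA, was at 1.53 and 3.05, and did not meet the rule among members with a basal average above 0. In the non-basal cells Malat1 was higher as well (3.53 and 4.43), while Neat1 was at 0.83 and -0.13. The wound bed plates had Malat1 means of 33 and 6.19, and the mitochondrial share of reads in members had medians of 24.6% in control, 35.1% in distal memory and 31.3% in the wound bed, whose part in these values was not tested.

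Fcgbp, an IgG Fc-binding protein, led the ranking in distal members, with means of 3.16 and 1.92 against 0.00474 and 0.0852 in control. It was read in 42.9% (27.7 to 59%) and 10% (3.33 to 21.8%) of members. With 3 control reads in batch 1 the summed reads differed 40.6-fold (13.7 to 199). The ratio of the equal-weight means of that batch lay above this interval without the added 0.1 and inside it with the added 0.1. Serpinb2, a protease inhibitor of stressed keratinocytes, was read in 15 of 42 distal and 1 of 50 control members, and Il1r2, the decoy receptor of interleukin-1, in 12 of 42 and 2 of 50. Cdh3, P-cadherin of basal and hair germ cells, was read in 12 of 42 and 1 of 50. Serpinb2 was at least 19.5-fold and Cdh3 at least 11.2-fold higher in batch 1 by summed reads. Lrp4, a receptor that modulates Wnt signalling, was at 2.73 in batch 2 and 17.5-fold higher by summed reads in batch 1 (5.80 to 86.8, 3 control reads). Notch1 was at 1.31 in batch 2 and 16.5-fold higher in batch 1 (2.71 to 676, 1 control read), and it fell short of the rule with scaled plate sums and with thinned cells. Cdh3, Il1r2, Lrp4, Cstdc5, Defb6 and Dsg1a also fell short with thinned cells. Maf (2.99 and 1.98), Acer3 (3.43 and 1.81), Rala (2.37 and 1.87), Gltp (2.02 and 1.74) and Kxd1 (3.04 and 2.59) were higher by rank, as was the differentiation gene Dapl1 (2.03 and 2.38), which was not higher in the non-basal cells (-1.29 and -0.10).

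Among the stefin genes, Stfa3 was at 4.66 and 1.55 and Cstdc5 at 3.42 and 1.76, so that 2 of 4 considered were higher (5.62% of all genes). Single cells weighed heavily here, since 1 cell gave 56.8% of the Stfa3 mean in batch 1 and 1 gave 51.3% in batch 2. Stfa3, Maf, Acer3, Dapl1 and Col17a1 fell short of the rule with scaled plate sums. None of 5 glutathione transferases considered met the rule. With 3.74% of all genes called lower, that count is no result about the family. All 5 were below 0 in both batches, with medians of -1.01 and -0.50. The share of all genes below 0 in both batches is not given, so this is a description only. The median over all genes was 0.15 and -0.02.

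Of the 6 basal gate genes, 2 met the rule in distal members against control. In both batches 5 of the 6 were above 0, and Krt15 was below 0. These genes set the membership, so their levels describe the cells chosen and are no separate result. Col17a1 had means of 7.89 and 14.1 in distal memory and 1.52 and 5.03 in control (2.30 and 1.47), and Krt5 of 10.6 and 15.2 against 5.27 and 6.23 (1.0 and 1.28). Krt5 fell short of the rule without the repeat-rich cells and in 7 other settings. Plec, which links keratin to hemidesmosomes (1.58 and 1.34), and Lama3 (1.38 and 1.01) were higher, among 3 of 13 other basal-layer genes considered (5.62% of all genes). None of the 13 was lower, but with 3.74% of all genes called lower a count of 0 among 13 is no result. Lama3 did not meet the rule in 9 alternative settings, among them the one without repeat-rich cells. Defb6, a beta-defensin of the upper follicle gate, was lower (-2.48 and -2.70).

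Genes lower in distal members by rank were of varied function. Egr2, an early growth response factor, was read in 38.1% and 62% of members (-1.93 and -1.65), and Aplp2 in 52.4% and 72% (-2.09 and -1.47). Lratd1 (-2.97 and -1.58), Emb (-2.78 and -1.56), Phf14 (-2.29 and -2.22), Mrps18c (-2.09 and -3.12), Rtn4 (-2.47 and -1.53), Denr (-2.74 and -1.45), Marcks (-1.49 and -1.57) and Uqcrb (-1.45 and -1.91) were the others, and Scd1, a lipid desaturase of the sebaceous gland list, was at -1.04 and -1.98. Rtn4, Uqcrb, Marcks, Phf14 and Scd1 fell short of the rule without the repeat-rich cells. Emb, Mrps18c, Denr, Rtn4, Marcks, Uqcrb and Scd1 fell short with plate sums scaled by TMM and by DESeq2 size factors, and Egr2 with the latter. One control cell gave 66.7% of the batch 1 mean of Marcks. Of the 33 named genes that met the rule, 22 had the same sign in both batches of the non-basal cells, 2 the opposite sign (Dapl1 and Lama3) and 9 mixed signs. These counts too come from the same plates and have no share over all genes beside them.

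Set directly against each other, distal members had more of the mu-class glutathione transferases and less of 2 of 5 stefins considered than wound bed members. Over all genes, 6.91% were higher and 4.46% lower. Gstm5 was at 3.27 and 3.55, Gstm1 at 2.08 in batch 2 (23.9-fold by summed reads in batch 1, 8.12 to 116) and Gstm2 at 2.02 and 1.64, which made 3 of 5 of the family considered (Gstm2 fell short with scaled plate sums), with medians of 2.02 and 1.64 against -0.06 and 0.09 over all genes. Cstdc5 (-3.73 and -3.08), Csta1 (-1.30 and -1.67) and Dsg1a (-2.30 and -2.39) were lower. Stfa3 was higher in distal members in batch 1 (means 46.2 and 11.3) and lower in batch 2, and the stefin medians were -0.39 and -1.90. Ccl27a was read in 57.1% of distal members (41 to 72.3%) and 11.1% of wound bed members (3.11 to 26.1%), at 4.09 and 3.07. H2-K1 was read in 71.4% (55.4 to 84.3%) and 30.6% (16.3 to 48.1%), at 1.5 and 3.12, and was not of one sign in the non-basal cells (-0.14 and 1.81). Postn was at 1.83 and 1.47 and Krt15 at 1.02 and 1.71. Krt15, a gate gene, fell short with a pseudocount of 1, with thinned cells and with the gate on thinned cells. It also fell short among members with a basal average above 0.

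Klf13, a zinc-finger factor, was read in 64.3% and 13.9% of distal and wound bed members (32.9-fold by summed reads in batch 1, 11.2 to 160, and 3.0 in batch 2), but stood at -0.25 and -0.41 in the non-basal cells. Clca3a2 was read in 50% and 5.56% and was at least 99.5-fold higher by summed reads in batch 2. Gsn, the actin-severing protein gelsolin (2.73 and 2.09), Aldh3a1 (2.19 and 2.12), Txn2 (2.13 and 3.01), Atp6v1a (2.29 and 2.21) and Eif5 (2.62 and 2.06) were higher too, with 1 cell behind 70.1% and 88% of the distal means of Atp6v1a. Txn2 fell short with scaled plate sums. Lower genes were Ccng1, a p53 target (-2.24 in batch 1, and 415-fold lower by summed reads in batch 2 with 1 distal read, 74 to 16448), Gja1, the gap-junction protein connexin 43 (-2.19 and -2.92), Cd24a, a surface glycoprotein (-2.11 and -3.33), Ntan1, Tmx1, Cox20, Denr and Ndufb3, of which the last 4 fell short with scaled plate sums. In the BMP and TGF-beta list, 2 of 9 considered were higher (Acvr2a, a receptor read in 12 of 42 and 1 of 36 members, and Smad5) and 2 lower (Id1, a BMP target read in 2 of 42 and 13 of 36, and Tgfbr2). Acvr2a fell short without the repeat-rich cells, and all 4 fell short with a pseudocount of 1 and with thinned cells. Notch1 stood at 1.10 and 2.97 but fell short with scaled plate sums and with thinned cells. None of 11 Wnt pathway genes considered met the rule. With 6.91% of all genes called higher and 4.46% lower, that count is no result about the list. Of the 32 named genes that met the rule, 19 had the same sign in both batches of the non-basal cells, 5 the opposite sign and 8 mixed signs. As above, these counts come from the same plates and have no share over all genes beside them.

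Few cell-cycle and immediate early genes were read widely enough to be compared between regions. None of the considered S phase genes (6, 4 and 6 in the 3 comparisons of distal memory with control, wound bed with control and distal memory with wound bed), G2 and M phase genes (1, 0 and 1) or immediate early genes (3, 1 and 4) met it. Of all genes, 3.74 to 6.91% were called in each direction, so a count of 0 among so few is no result about these groups. Among the wound keratinocyte genes Krt6a was read in 55.6% of wound bed, 42.9% of distal and 48% of control members and Krt16 in 5, 1 and 2 cells. In the wound bed 41.7% of members (25.5 to 59.2%) had reads of at least 2 of 16 genes of this list. In distal memory 16.7% did (6.97 to 31.4%) and in control 16% (7.17 to 29.1%), and the intervals overlap. At equal depth the shares were 29%, 15.8% and 6.12%. The summed level was 8.68 and 3.44, 2.61 and 2.41, and 4.23 and 3.05 in that order.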

How the data were processed

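Single cells were profiled by Smart-Seq2, a full-length method without molecular identifiers. The authors deposited 1 table of counts per gene and cell (27003 genes, of which 5495 had no read, and 250 cells), and Salmon 0.13.1, Seurat and R 4.0.3 with mm10 (GRCm38) are named in the submitters' processing notes. Totals ran from 3857 to 3119120 reads per cell, and exact 95% intervals and floors cover counting error only. Each cell was scaled to reads per 10000 and averaged with equal weight per plate. Ratios used a pseudocount of 0.1, a filter at 25% of members and the 2-fold rule in both batches, computed with Python 3.11.15, numpy 2.4.6, pandas 2.3.3 and scipy 1.17.1. The code was also run on simulated cells with known changes and no plate or batch effects, which checks the code only. Alternatives used size factors from edgeR 4.0.16 and DESeq2 1.42.0 in R 4.3.3. Since the labels tie no cell to an animal, p-values were not possible.

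Genes were named by rank (up to 10 in each direction, read in 40% of the members of the higher region), from 26 lists (up to 4 a list) or always (gate genes, Lrig1, Ly6a and Gata6). Against other cells, up to 12 in each direction were named. Members and lists were chosen with earlier results of these data known. Promoters came from RefSeq (GRCm38.p6).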

Additional observations from a re-analysis of the deposited data

How the results depend on the processing

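The shares of basal-gated cells stayed between 54.8 and 61.7% in control, 50 and 55.6% in distal memory and 36.7 and 45.5% in the wound bed over 8 alternatives. The number of genes past the size rule was 263 for distal memory against control, 287 for wound bed against control and 316 for distal memory against wound bed. In that order it was 40, 64 and 56 with a pseudocount of 1, 674, 673 and 739 with a filter at 10% of cells, 843, 946 and 915 with no filter beyond 1 read, 132, 153 and 177 with cells thinned to 10000 reads, and 1194, 1125 and 1590 in batch 2 alone, which was chosen after seeing the data. The other 9 alternatives stayed within 1.5 times, among them those without repeat-rich cells (268, 320 and 293) and with a basal average above 0, both also chosen after seeing the data. The share of higher genes, 60.1% and 60.8% for distal memory against control and against wound bed, moved to 30% and 46.4% with a pseudocount of 1, and the first to 49.6% in batch 2 alone. Of the named genes, 5 of 33, 15 of 33 and 16 of 32 met the rule in all 14 alternatives (distal memory against control, wound bed against control, distal memory against wound bed). The looser filters, the smaller pseudocount and batch 2 alone ended no call, but they loosen the rule and so say nothing of stability. A pseudocount of 1 ended 15, 13 and 13 of the calls. Mean ratios changed sign for Marcks (0.55 with TMM, 0.59 with DESeq2 size factors), for Itgb4 in the wound bed against control (-0.0427 with TMM, -0.000297 with DESeq2 size factors, -0.45 with thinned cells, -0.37 with the gate on thinned cells) and for Egr2 (0.12 among members with a basal average above 0). The cause of these changes was not tested. No paired analysis was possible because no animal is named and each region counts as 1 sample. Depth limits what can be said of genes read in few members.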
